A study of Mus musculus with 2 samples.

Results

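The genes described here are 10 transcription factor and early response genes, chosen by name and not by a measured value. Earlier results of these data were known when they were chosen. They are Myc and Mycn of the Myc family, the AP-1 genes Fos, Fosb, Jun, Junb and Jund, and the immediate early genes Egr1, Ier2 and Atf3. All 10 symbols were found among the 37273 genes (22367 of them protein-coding) of the GENCODE M1 annotation of the mouse genome build mm9, and the R-loop peaks studied were those that overlapped one of these genes or lay within 10 kb of it. They numbered 12 of the 22132 peaks of the list, 6 of them overlapping a gene. R-loops had been mapped by DRIP-seq, in which DNA cut by restriction enzymes is pulled down by the S9.6 antibody, which binds RNA:DNA hybrids, and then sequenced. The cells were primary neural stem/progenitor cells (NSPCs) cultured from the frontal brains of C57BL/6 mice at postnatal day 7. The paper describes them as exposed to aphidicolin, an inhibitor of DNA polymerases that causes mild replication stress, whereas the sample labels name no treatment. A single peak list was analysed and the matching input library was not used here.

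That list gives the position of each peak with no read count, signal or score, and holds no separate values for replicates. For this reason no value below has an error between replicates, the sequencing depth is unknown, and no differences between conditions could be tested. A gene with a peak is therefore a gene where the authors' caller placed one, and a gene without a peak is not shown to lack R-loops. The level of transcription was not used here, and a peak is not a measure of it. Of 10 genes that mark neural stem and progenitor cells, 7 contained a peak (Sox2, Nes, Vim, Hes1, Slc1a3, Msi1 and Notch1) and Pax6, Fabp7 and Hes5 did not, beside 39.6% of all protein-coding genes. Peaks were found in 1 of 5 neuron, 1 of 4 oligodendrocyte, 2 of 5 microglia and 1 of 4 endothelial marker genes. The median length of these lists ran from 9.14 kb for the neural stem and progenitor list to 267 kb for the neuron list, so the counts are a description and do not establish the cell type.

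An R-loop forms when a nascent RNA pairs with the DNA strand it was copied from and leaves the other strand single, which happens most readily in transcribed, G-rich sequence. Immediate early genes are switched on by growth factors, neuronal activity or stress through transcription factors already present in the cell, so their induction needs no new protein. Fos and Jun proteins pair as AP-1, the Myc proteins pair with Max at E-boxes, and Mycn in particular is known for driving the growth of neural progenitors.

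The 10 genes fell into 4 patterns, which the map of peaks around their start sites shows. Jun, Junb and Ier2 lay wholly inside a peak and Fos did so for 98.2% of its length. Fosb had a peak in its body that reached neither of its ends, and Myc was met by a peak at its end alone. Egr1 and Jund had a peak outside the gene but within 10 kb. Mycn and Atf3 had none within 50 kb.

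**Figure D1:**
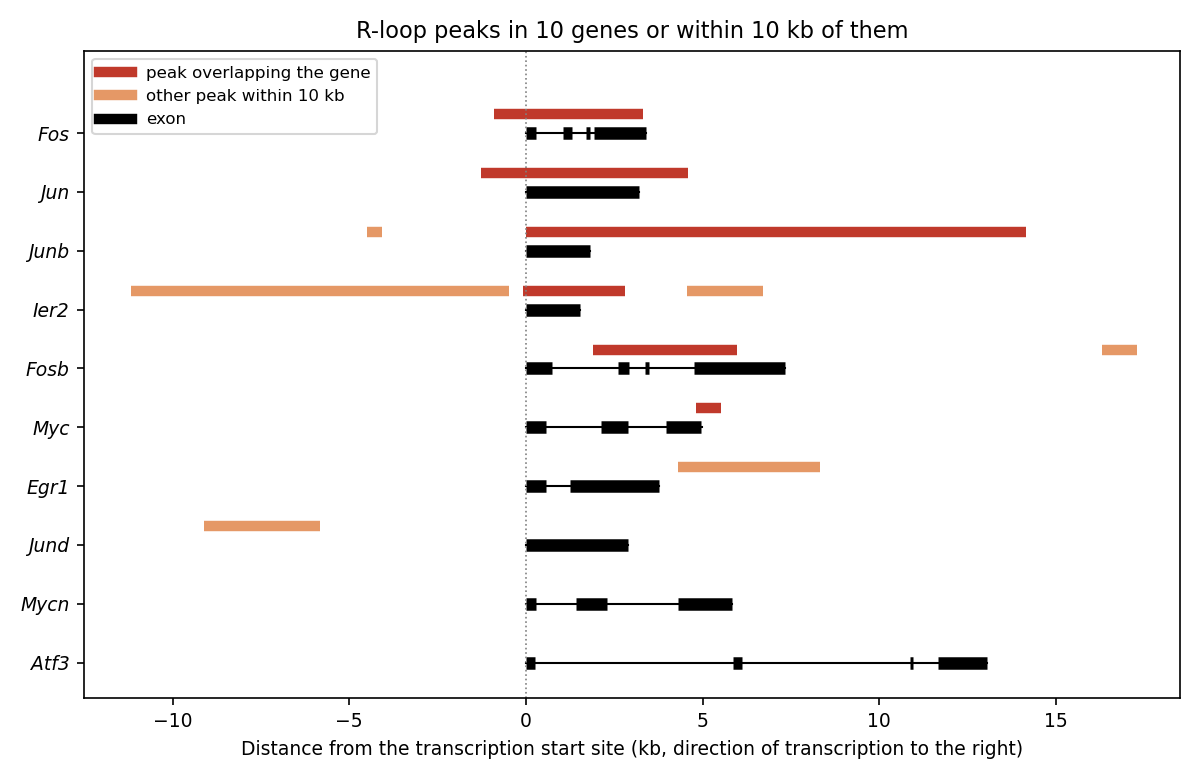
Position of R-loop peaks in the 10 genes or within 10 kb of them, plotted as distance in kb from the transcription start site, with transcription running to the right and exons of the longest coding transcript in black. Peaks that overlap the gene (dark) contain the start of Fos, Jun, Junb and Ier2, whereas the peaks of Fosb and Myc begin 1902 bp and 4826 bp after it, and Mycn and Atf3 have no peak in the range shown.

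In all, 6 of the 10 genes overlapped a peak by at least 1 bp, compared to 39.6% of protein-coding genes. Among the 7442 protein-coding genes of the same length range, 1.52 to 13 kb, the share was 32%. Counting peaks within 10 kb raised the number to 8 of 10, beside 51.3% of protein-coding genes and 47.2% of those in the length range. The transcription start site (TSS) lay inside a peak in 4 genes, Fos, Jun, Junb and Ier2, compared to 14.9% of protein-coding genes and 16.8% in the length range. The transcription end site (TES) lay inside a peak in 4 genes, Jun, Junb, Ier2 and Myc, compared to 10.9% and 15%. These counts describe a small set of named genes and were not tested.

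Extended coverage and no coverage were equally frequent among them. Peaks covered at least 95% of Fos, Jun, Junb and Ier2, 4 of the 10 genes, compared to 5.04% of protein-coding genes in the length range. Over the 6 genes with a peak the median share of the gene covered was 99.1%, whereas it was 42.9% over the 2384 genes of that length range that contained a peak. This comparison was not matched for length, as the median length was 3.58 kb for the 10 genes and 5.96 kb for the range. Fos, Jun, Junb and Ier2 were 1.52 to 3.38 kb long, and Junb took up only 12.8% of its peak. Over all 10 genes the median was 29.4%, since 4 genes were at 0, and over all protein-coding genes it was 0.

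Sequences are shown on the strand of each gene, because G-rich stretches of the coding strand are known as sites where R-loops are stable. That reason covers transcribed sequence only. Stretches upstream of a TSS or beyond a gene end are given on the same strand but lie outside the annotated gene. The search was limited to the gene and 1 kb on each side, so the Jun, Junb and Ier2 peaks were not searched beyond that. Within this limit, the following are the 60 bp inside the peak of each gene in which G most exceeded C. They were read outside annotated untranslated regions, with runs of 3 or more G in capitals and with mm9 positions.
Fos, chr12:86815479-86815538, plus strand: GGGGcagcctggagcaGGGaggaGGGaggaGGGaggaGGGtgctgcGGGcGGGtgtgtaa
Jun, chr4:94719115-94719174, minus strand: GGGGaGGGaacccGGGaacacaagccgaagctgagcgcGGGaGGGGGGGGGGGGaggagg
Junb, chr8:87501932-87501991, minus strand: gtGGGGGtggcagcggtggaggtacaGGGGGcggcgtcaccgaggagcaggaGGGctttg
Ier2, chr8:87184981-87185040, minus strand: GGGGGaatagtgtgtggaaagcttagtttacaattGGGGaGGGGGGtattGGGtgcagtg
Fosb, chr7:19893221-19893280, minus strand: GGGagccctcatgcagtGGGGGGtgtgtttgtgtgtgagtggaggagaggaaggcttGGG
Myc, chr15:61822123-61822182, plus strand: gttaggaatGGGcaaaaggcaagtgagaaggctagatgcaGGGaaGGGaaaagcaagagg
The Fos stretch lay in an intron, from 639 bp after the TSS, and had 36 G and 7 C. That of Jun lay upstream of the TSS, in an intron of the non-coding transcript BC042782-004, with 35 G and 10 C. This transcript runs on the opposite strand to Jun, so these G lie on its template strand. The Junb stretch, with 33 G and 10 C, was coding sequence. The Fosb stretch was intronic with 31 G and 6 C. The stretches of Ier2 and Myc lay downstream of the gene ends in intergenic sequence, and that of Myc was the poorest in G, with 25 G and 5 C.

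Stretches with as large an excess of G were also found where no peak was called. The same search outside peaks, within the gene and 1 kb on each side, gave the following in the genes without a peak at their start, of which Egr1 and Fosb are given by count alone.
Mycn, chr12:12948907-12948966, minus strand: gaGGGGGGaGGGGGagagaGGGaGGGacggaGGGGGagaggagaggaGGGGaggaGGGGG
Jund, chr8:73220642-73220701, plus strand: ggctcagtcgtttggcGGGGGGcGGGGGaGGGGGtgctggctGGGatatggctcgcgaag
Atf3, chr1:193006134-193006193, minus strand: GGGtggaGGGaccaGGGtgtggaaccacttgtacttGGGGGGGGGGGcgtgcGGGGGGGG
Myc, chr15:61816152-61816211, plus strand: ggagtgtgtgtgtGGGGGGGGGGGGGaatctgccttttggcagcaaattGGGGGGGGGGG
The Mycn stretch began at -246 bp relative to the TSS and had 44 G and 1 C, the largest excess among the 10 genes. That of Jund, from -996 bp, had 33 G and 10 C, and that of Atf3, in its intron, 36 G and 8 C. The Myc stretch, from -794 bp, had 35 G and 5 C, a larger excess than the one inside its peak (25 G and 5 C). However, the Myc peak was only 0.703 kb wide, whereas 4826 bp of the gene lay outside it. In Egr1 the corresponding intronic stretch had 34 G and 5 C, and in Fosb a stretch upstream of the TSS had 32 G and 7 C. The best stretches outside the peaks of Fos (25 G and 9 C), Junb (27 G and 11 C) and Ier2 (18 G and 5 C) had a smaller excess of G than those inside. The lengths searched inside and outside peaks were not matched. A longer search more readily holds a larger excess, so these values cannot compare sequence inside and outside peaks. For Jun the whole of the searched region lay in the peak.

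Myc (ENSMUSG00000022346, chromosome 15, 61816946 to 61821929, plus strand) encodes the bHLH-zipper transcription factor c-Myc, a regulator of cell growth, and has 3 exons in its longest coding transcript, Myc-005. A peak of 0.703 kb, from 61821772 to 61822474, overlapped the last 158 bp of the gene, 3.17% of its length. It covered 30.1% of the 3′-UTR of Myc-005 and none of its 5′-UTR, coding sequence or introns. Of this peak, 22.5% lay inside the gene and the rest ran past the TES.

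This Myc peak stood apart from the others in its composition. Its GC content was 38.1%, and only 1.96% of the peaks in the list had a lower one. The part of it inside the gene had 18.4% GC, while the rest of the gene had 54.1%. It was also narrow, as 70.7% of all peaks were wider, and it is lost when peaks under 1 kb are left out. No annotated Myc start lay closer than 2795 bp to it. Of the protein-coding genes in the length range, 8.1% likewise had their TES but not their TSS in a peak. The peak had no other protein-coding gene near it, the nearest being A1bg at 1068947 bp, and the next peaks lay 72.9 kb upstream and 50.8 kb downstream of Myc.

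No peak overlapped Mycn (ENSMUSG00000037169, chromosome 12, 12942902 to 12948720, minus strand), the Myc paralogue expressed in neural progenitors. The nearest lay 137 kb upstream, and downstream the next was 565 kb away. Genes with no peak within 50 kb made up 30.6% of protein-coding genes and 31.5% of those in the length range, and among the 10 genes they were Mycn and Atf3. The third family member, Mycl1, which is not among the 10, also contained no peak, and the nearest one lay 33267 bp from it.

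Fos (ENSMUSG00000021250, chromosome 12, 86814840 to 86818223, plus strand) encodes the partner of Jun proteins in AP-1. Its peak, 4.24 kb wide, ran from 86813924 to 86818163, that is from -916 bp relative to the TSS to 60 bp short of the TES. It covered the 5′-UTR, coding sequence and introns of Fos completely and 92.7% of the 3′-UTR. The starts of all 4 annotated transcripts lay in it. The peak overlapped no other annotated gene, and 13.3% of peaks in the list were wider.

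In Fosb (ENSMUSG00000003545, chromosome 7, 19888070 to 19895394, minus strand), a paralogue of Fos, a peak of 4.07 kb from 19889419 to 19893492 lay wholly within the gene and covered 55.6% of it. The peak began 1902 bp after the TSS, in the intron behind exon 1. Exon 1 was not covered, exons 2 and 3 were covered completely and exon 4 was covered for 47.8%. As a result 87.6% of the coding sequence but none of the 5′-UTR lay in the peak. A peak in the gene with both ends outside any peak was found in 7.18% of protein-coding genes in the length range. Another peak of 0.997 kb lay 8976 bp downstream, within the neighbouring gene Rtn2.

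Jun (ENSMUSG00000052684, chromosome 4, 94715725 to 94718913, minus strand) encodes c-Jun in a single exon. Its peak of 5.87 kb, from 94714323 to 94720193, began at -1280 bp relative to the TSS and ran past the TES, so that 54.3% of the peak lay in Jun. The peak also overlapped BC042782, which is transcribed from the opposite strand and starts inside Jun, and Gm12703 on the downstream side, both annotated as processed transcripts. The list gives no strand, so hybrids of Jun and of BC042782 cannot be told apart. Jun was otherwise isolated in the list, with the next peaks 621 kb upstream and 115 kb downstream.

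Junb (ENSMUSG00000052837, chromosome 8, 87500811 to 87502617, minus strand) also has a single exon, and its product is a weaker activator than c-Jun. Its peak was the widest of the 12, at 14.2 kb from 87488459 to 87502625, and only 0.727% of peaks in the list were wider. It began 8 bp upstream of the TSS and ran far beyond the TES, so that Junb took up 12.8% of it. The same peak overlapped Prdx2, which encodes a peroxiredoxin, and Rnaseh2a, which encodes the catalytic subunit of an RNase H that degrades the RNA of RNA:DNA hybrids. The share of this peak that belongs to Junb transcription cannot be told apart from that of its neighbours. A narrow peak of 0.411 kb lay 4083 bp upstream of Junb.

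Jund (ENSMUSG00000071076, chromosome 8, 73221638 to 73224515, plus strand), the Jun paralogue known for steady rather than induced expression, overlapped no peak. A peak of 3.28 kb, from 73212533 to 73215811, ended 5827 bp upstream of its TSS in sequence that overlapped no annotated gene, and the next one downstream was 161 kb away. Of the 4 single-exon genes, Jun, Junb, Jund and Ier2, Jund was the one without a peak. Among the 2953 single-exon protein-coding genes of the annotation, a class that includes many olfactory receptor genes, 6.54% contained a peak.

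Egr1 (ENSMUSG00000038418, chromosome 18, 35020861 to 35024638, plus strand) encodes a zinc finger transcription factor. Its nearest peak began 512 bp beyond the TES and was 4.04 kb wide, from 35025150 to 35029190. This peak lay outside the gene as annotated and 387 bp from another coding gene model, Gm17507. Widening each gene by 2 kb counts it and raises the genes with a peak from 6 to 7.

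Ier2 (ENSMUSG00000053560, chromosome 8, 87185230 to 87186751, minus strand), an early response gene whose product acts in the nucleus, is the shortest of the 10 at 1.52 kb. It was completely covered by a peak of 2.9 kb, from 87183950 to 87186844, which began 93 bp upstream of the TSS. It had the highest GC content of the 12 peaks, 57.1%, and 90.9% of peaks in the list had less. A further peak of 10.7 kb began 471 bp upstream of the TSS and overlapped Nacc1 and the lincRNA Gm2529, and another of 2.15 kb lay 3041 bp downstream. With 9 peaks within 50 kb, Ier2 had the most of the 10 genes, followed by Junb with 8 and Fosb with 7. The median over the 10 genes was 2.5, compared to 2 for genes in the length range.

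Atf3 (ENSMUSG00000026628, chromosome 1, 192994175 to 193007219, minus strand), which encodes a stress-induced repressor of the ATF family, is the longest of the 10 at 13 kb and contained no peak. The nearest peaks were 52.2 kb upstream and 202 kb downstream.

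**Figure D2:**
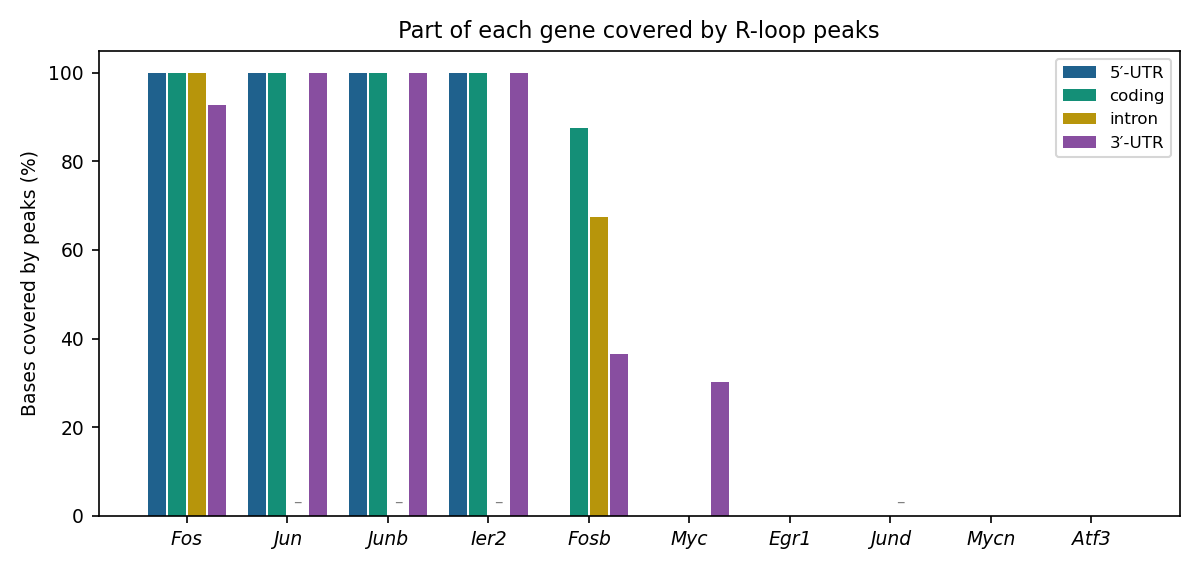
Percent of the bases of the 5′-UTR, coding sequence, introns and 3′-UTR of the longest coding transcript that lie in R-loop peaks, for each of the 10 genes (a dash marks genes without an intron). Jun, Junb and Ier2 are at 100% throughout and Fos in all but the 3′-UTR (92.7%). Fosb is at 0 for the 5′-UTR, 87.6% for coding sequence, 67.5% for introns and 36.5% for the 3′-UTR. Myc has 30.1% of its 3′-UTR, and the last 4 genes are at 0.

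The share of each gene part that lay in peaks is plotted by gene. Coding sequence was covered in 5 genes and the 5′-UTR in 4, and wherever the 5′-UTR was covered it was covered completely. The 3′-UTR was touched in 6 genes, at values from 30.1% in Myc and 36.5% in Fosb to 100% in Jun, Junb and Ier2. Coverage of gene parts was not computed over other genes, so these counts have no share beside them and are a description only.

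Because the DNA was digested with 5 restriction enzymes before the pull-down, the fragment holding each TSS was examined, an analysis chosen after seeing the data. These fragments were 0.385 to 4.1 kb long, with a median of 1.56 kb for the 10 genes and 1.55 kb for genes in the length range. A peak overlapped the TSS fragment of 4 genes, again Fos, Jun, Junb and Ier2, compared to 20.5% in the length range. The 4.1 kb fragment of Egr1 and the 0.912 kb fragment of Jund had no peak. Of the 24 edges of the 12 peaks, 7 (29.2%) lay within 100 bp of a restriction site, compared to 28.4% of all 44264 edges. Among these were both edges of the Jun peak, 28 and 7 bp from a site, and both of the Junb peak, 11 and 61 bp from one.

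The promoters of Fos, Junb and Ier2 are printed because the upstream edge of the peak fell at a different distance in each. The lines give the 150 bp before the TSS on the coding strand in mm9, with capitals for the motif matches described next.
Fos, chr12:86814690-86814839, plus strand: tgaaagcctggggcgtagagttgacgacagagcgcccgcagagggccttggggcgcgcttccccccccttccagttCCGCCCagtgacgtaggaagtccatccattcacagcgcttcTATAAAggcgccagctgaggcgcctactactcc
Junb, chr8:87502618-87502767, minus strand: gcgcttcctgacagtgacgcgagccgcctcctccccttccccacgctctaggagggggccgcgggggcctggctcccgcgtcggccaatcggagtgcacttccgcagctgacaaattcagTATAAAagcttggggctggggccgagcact
Ier2, chr8:87186752-87186901, minus strand: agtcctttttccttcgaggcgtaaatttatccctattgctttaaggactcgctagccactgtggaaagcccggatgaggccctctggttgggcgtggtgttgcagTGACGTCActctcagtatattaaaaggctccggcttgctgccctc
All 150 bp lay in the peak in Fos, the last 93 bp in Ier2 and the last 8 bp in Junb. All 150 bp were also covered in Jun, and 0 in the other 6 genes.

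Motif searches covered both strands from 250 bp upstream to 50 bp downstream of each TSS. The TATA box, TATAAA, was found in Myc, Fos and Junb, 3 of 10 genes, and in 13.4% of 22367 protein-coding promoters. In Fos it spanned positions -33 to -28 and in Junb -30 to -25, counted from the TSS as position 0, and in Myc it read TTTATA on the coding strand at -35 to -30. The cyclic AMP response element TGACGTCA occurred in Ier2 alone, at -45 to -38, and in 2.32% of promoters. The CArG box, bound by serum response factor, occurred in Egr1 alone, at -105 to -96 and again at -83 to -74, and in 1.47% of promoters.

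The GC box GGGCGG occurred in 6 of the 10, Myc, Mycn, Fos, Fosb, Jun and Atf3, and in 43.4% of promoters. The AP-1 site TGANTCA and the E-box CACGTG were found in 0 of the 10, and in 6.93% and 7.78% of promoters. No match of one motif overlapped a match of another, although a GC box adjoins the TATA box of Myc. A TATA box was thus present in Fos and Junb, whose TSS lay in a peak, and in Myc, whose TSS did not. A match describes letters in this window and not binding. Sequence outside the window was not searched, so a gene without a match is not shown to lack the motif.

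Base composition at the start did not separate the genes with and without a peak there, as the plot of composition at the gene start shows. Within 500 bp of the TSS, the GC content of Fos, Jun, Junb and Ier2 was 55.3 to 62.5%, and it was 59.2 to 67.7% in Myc, Mycn, Fosb, Egr1 and Atf3. The median over protein-coding genes was 54.8%, and it was 61.7% over the 3325 genes with a peak at the TSS. The ratio of observed to expected CpG was 0.673 to 0.851 in these 9 genes, beside a median of 0.549 over protein-coding genes.

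Jund differed from the rest at its annotated start, with 46.6% GC and a CpG ratio of 0.24. Its other transcript, Jund-202, starts 1219 bp further downstream, where GC content was 68.2% and the CpG ratio 0.877. No peak lay at either start. Over the whole gene Jund had 62.7% GC, above 99.2% of protein-coding genes, and Junb had 62.6%, above 99.1%. Runs of 4 G on the coding strand were also alike in these paralogues, at 10.1 per kb in Jund and 11.1 per kb in Junb. One of the 2 was wholly covered by a peak and the other had none within 5 kb.

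**Figure D3:**
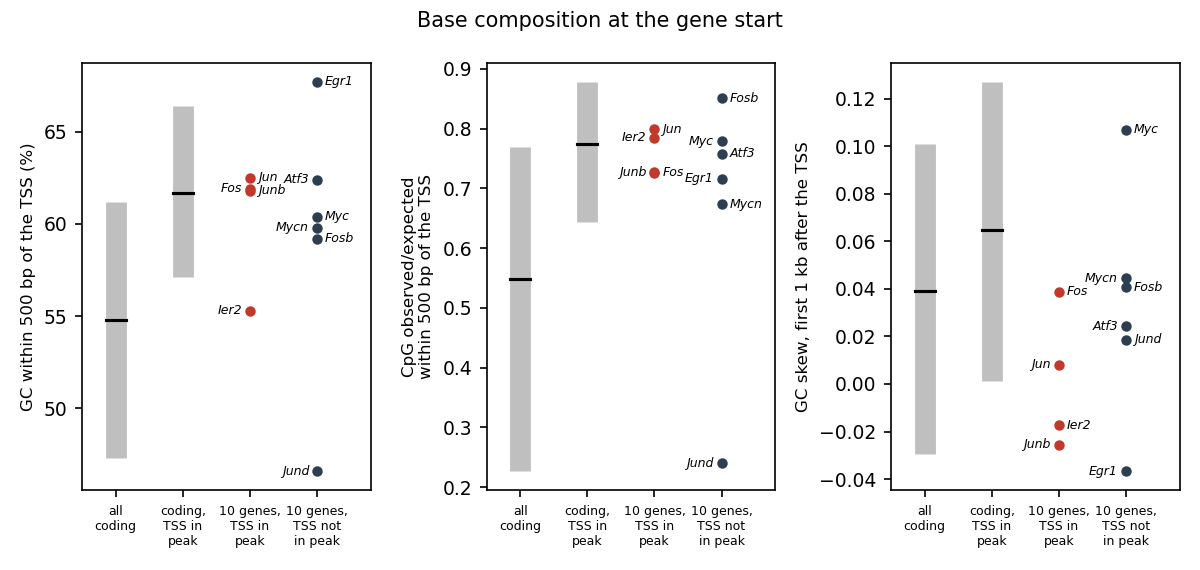
GC content and CpG observed/expected within 500 bp of the TSS, and GC skew over the first 1 kb, with grey boxes for the quartiles and lines for the medians of all protein-coding genes and of those with the TSS in a peak, and a point for each of the 10 genes. The 4 genes with the TSS in a peak lie within the range of the other 6 in all panels, and Jund is the lowest in GC content (46.6%) and CpG ratio (0.24).

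GC skew, here (G - C)/(G + C) on the coding strand, was computed for the first 1 kb of each gene. The median was 0.039 over protein-coding genes and 0.0649 over those with the TSS in a peak. In Fos it was 0.0387, in Jun 0.00805, in Ier2 -0.0173 and in Junb -0.0256. None of these 4 genes reached the median of the genes that shared a peak at the TSS. Myc, without a peak at its start, had the highest skew of the 10 genes, 0.107, above 77% of protein-coding genes. Mycn had 0.0445, Fosb 0.0407, Atf3 0.0243 and Jund 0.0186, and Egr1 had the lowest value, -0.0366. These values hold for the gene start and changed with the start used. Over the annotated starts skew ran from -0.0605 to 0.0825 in Mycn, from -0.194 to 0.107 in Myc and from 0.0346 to 0.0471 in Fos. It was 0.0774 at Atf3-002, -0.0152 at Jund-202 and -0.0192 at Jun-201.

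Along the genes, skew changed sign many times within a peak, as the profiles in 200-bp windows show. Over the whole Fos peak it was -0.0162, over the Jun peak 0.0167, over the Junb peak 0.0297 and over the Ier2 peak 0.0442, on the strand of each gene. The Myc peak had the highest value of the peaks that overlapped a gene, 0.097, at its low GC content. In Fosb, skew was -0.0191 in the part of the gene inside the peak and -0.0495 outside, with GC contents of 55.2 and 54.6%.

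**Figure D4:**
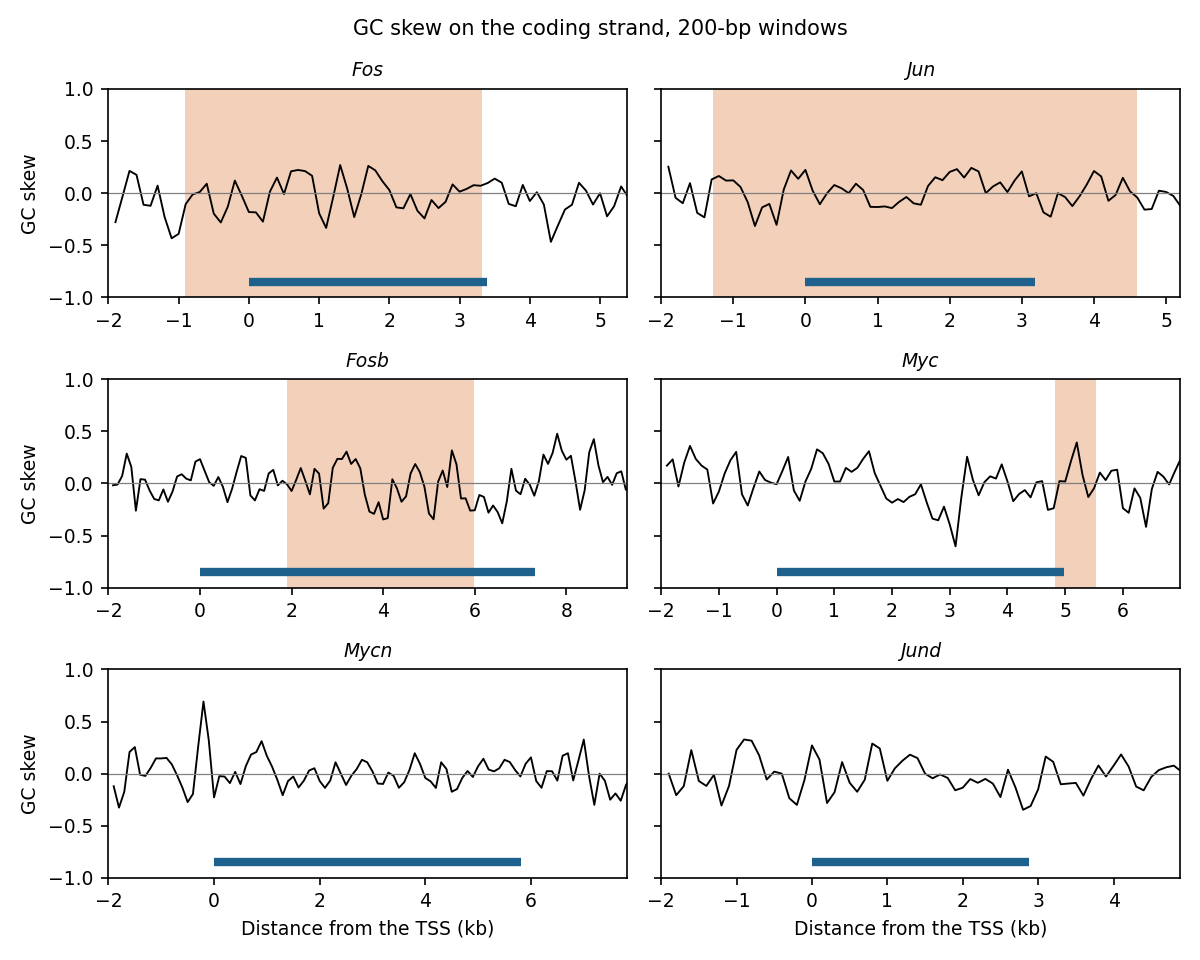
GC skew of the coding strand in 200-bp windows against distance from the TSS in kb for 6 of the genes, with shaded R-loop peaks and a bar for the gene. Skew crosses 0 repeatedly inside the peaks of Fos, Jun and Fosb, and the highest window plotted is upstream of the Mycn start, where there is no peak.

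The 6 peaks that overlapped a gene had a median GC content of 53.4%, while the median over all peaks was 48.7% with quartiles of 45.2 and 52.5%. The Myc peak lay far below this and those of Fos, Fosb, Jun, and Ier2 above the upper quartile. Their CpG ratios ranged from 0.119 in Myc to 0.705 in Ier2, compared to a median of 0.212 over all peaks.

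Start sites annotated by RefSeq (GRCm38.p6 sequences placed on mm9 by exact match) were compared as an alternative chosen after seeing the data. For 7 of the genes a RefSeq start was placed, and it was that of GENCODE in Fos, Fosb, Jun and Jund. In Junb it lay 30 bp further upstream, at 87502647, and 22 bp outside the peak. With RefSeq starts the genes with a TSS in a peak were therefore 3, Fos, Jun and Ier2, the last by its GENCODE start.

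The other genes of these pathways were examined in 4 lists, whose median lengths ran from 5.28 to 63.7 kb. Of 18 other genes of the Myc network, 16 (88.9%) contained a peak and 11 (61.1%) had a peak at the TSS, beside 39.6% and 14.9% of protein-coding genes. The median length of this list was 24.1 kb, and of the 4 genes within the length range of the 10 genes 3 contained a peak and 2 had one at the TSS, beside 32% and 16.8% of all genes in that range. Mxd3, a Max partner that opposes Myc, lay completely in a peak, and both ends of its relatives Mxd4 (61.4% covered) and Mxd1 (21.5%) and of the helicase gene Ruvbl2 (18.9%) also lay in peaks. Max itself, named after its values were seen, contained 2 peaks and had its TSS in a peak. Mycl1 was the single gene of this list with no peak within 10 kb.

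Of 16 other AP-1 and ATF genes, 12 (75%) contained a peak and 9 (56.2%) had one at the TSS, beside the same 39.6% and 14.9%. Within the length range, 5 of 8 (62.5%) contained a peak and 4 of 8 (50%) had one at the TSS, compared to 6 and 4 of the 10 genes and to 32% and 16.8% of all genes in the range. Atf4, Atf5 and Fosl1 were completely covered and Fosl2 for 90.5%, whereas Batf3, Maff and Mafk had no peak within 10 kb. Atf4, which acts upstream of Atf3 in the response to amino acid stress, thus lay in a peak while Atf3 had none within 50 kb. The symbol Atf7 did not match a single gene and was left out.

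Of 40 other immediate early genes, 34 (85%) contained a peak, 27 (67.5%) had a peak at the TSS and 12 (30%) at the TES, beside 39.6%, 14.9% and 10.9% of protein-coding genes. Dusp1, a phosphatase of MAP kinases, Egr3, Gadd45g and Ier3 were each covered completely. Cyr61, Nr4a3 and Ptgs2 had no peak within 10 kb. As many of these genes are short, the comparison was repeated for the 31 within the length range of the 10 genes, of which 26 (83.9%) contained a peak and 22 (71%) had one at the TSS, beside 32% and 16.8% of all genes in that range. The median share of the gene covered over the 40 genes was 38.6%, beside 29.4% over the 10 genes.

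The Egr family, chosen for comparison after its values were seen, held several patterns. Egr3 was completely covered, Egr4 was covered for 95.9% with its TSS in the peak, Egr2 had a peak over 40.7% of the gene that reached neither end, and Egr1 was missed by 512 bp. Of the neuronal activity genes, chosen in the same way, Arc and Npas4 contained no peak but had one 5051 and 1338 bp away, and Homer1 had its TSS in a peak that covered 0.317% of the gene.

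Of 21 upstream regulators of immediate early genes, 18 (85.7%) contained a peak and 8 (38.1%) had one at the TSS, beside 39.6% and 14.9% of protein-coding genes. These genes were long, with a median of 63.7 kb, and 0 of them had both ends in peaks. Of the 4 within the length range, 3 contained a peak and 2 had one at the TSS, beside 32% and 16.8% of all genes in that range. Srf, which encodes the factor that binds the CArG box and was likewise named after its values were seen, had a peak at its TSS and 70.2% of its length covered. Crtc1, Rps6ka3 and Rps6ka4 had no peak within 10 kb.

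**Figure D5:**
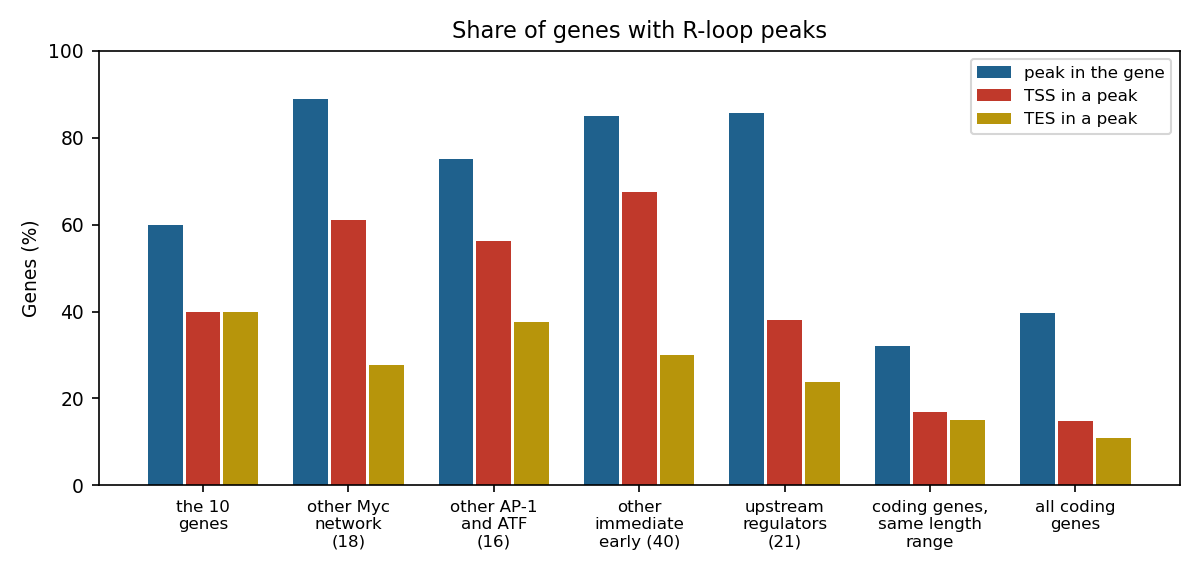
Percent of genes with a peak in the gene, with the TSS in a peak and with the TES in a peak, for the 10 genes, 4 lists of related genes (number of genes in brackets) and protein-coding genes in the same length range and overall. Bars are counts from 1 peak list without error, and the 10 genes are at 60, 40 and 40% beside 39.6, 14.9 and 10.9% of all protein-coding genes.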

How the data were processed

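NSPC DRIP-seq reads were adapter trimmed by the authors with Trim Galore 0.6.6, aligned to mm9 and freed of duplicate reads, and a Hidden Markov Model served to call peaks. The aligner and the rule by which replicates were combined are not given in the sources used here. The authors deposited 1 list of peak positions without any count, signal or score, so depth and precision per sample are unknown. The input was not analysed.

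Peaks, converted to 1-based positions, were overlapped (at least 1 bp) with GENCODE M1 genes and the mm9 sequence using Python 3.11.15 and numpy 2.4.6, and plots were drawn with matplotlib 3.10.9. Gene, TSS and TES limits followed the gene record. The overlap, coverage, window and skew steps were tested on simulated data. Shares over protein-coding genes stand beside most counts for the 10 genes and the related lists, but not beside those of gene parts or of most alternatives. No test was run because there is 1 list.

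The 10 genes and the lists of related genes were chosen with earlier results of these data known. All 10 genes are named. Of each related list, up to 4 genes with both ends in peaks and the largest coverage, and up to 4 genes without a peak within 10 kb, were named; exceptions are marked in the text. Alternatives left out peaks under 1 kb, joined peaks with gaps under 1 kb, or used other overlaps, gene limits and distances. Chosen after seeing the data were other start and end sites and the restriction fragment holding the TSS.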

Additional observations from a re-analysis of the deposited data

How the results depend on the processing

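The 11 results were recomputed in 51 alternatives, and 46 stayed within 1.5 times the reported count or at the reported median. Of the other 5, the median share of the 10 genes covered by peaks was 29.4% as reported, 27.8% with peaks of at least 1 kb and 29.2% with the longest coding transcript. The median GC content of peaks overlapping these genes was 53.4% as reported, 53.8% with peaks of at least 1 kb and 52.5% after merging peaks closer than 1 kb. The number of peaks in or near the genes was 12 within 10 kb and 36 within 50 kb, a wider search by construction. The number of genes with a peak, 6 as reported, ranged from 4 with the peak midpoint inside the gene to 7 with each gene widened by 2 kb. The number with the TSS in a peak was 4 in each alternative except RefSeq starts, where it was 3. For the TES it was 3 with peaks of at least 1 kb, 5 with the end of any transcript and 6 within 1 kb. Shares over protein-coding genes were not recomputed for these alternative counts of genes with a peak or with the TES in a peak. Whether they differ from other genes under the same settings was therefore not shown. No paired analysis was possible because the list holds no values of single replicates. Depth limits what a missing peak can show, and it is unknown here.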
